A study of Mus musculus with 18 samples.

Results

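The positions described here are footprint positions that lie downstream of a gene's strongest harringtonine position. They number 1255, in 819 genes, out of 9025 deposited single-nucleotide positions in 4613 genes. Harringtonine reads were summed over the 3 tunicamycin libraries and over the 3 untreated libraries, and the 6828 positions with at least 20 reads in each sum were kept. In each of the 3858 genes with such a position, the position with most reads over all 6 libraries was taken as the main position. The members are the other kept positions of the gene that lie on its strand, on the same chromosome and more than 10 nt further along in the direction of transcription. Another 938 kept positions in 633 genes lie more than 10 nt upstream of the main position and served for comparison, and 777 lie within 10 nt of it. The members and main positions were chosen by their harringtonine reads in both treatments, so a member's level, its change between treatments and its ratio to the main position are given below as descriptions, from which nothing is read.

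The cells were erythroblasts, the nucleated precursors of red blood cells, grown from mouse fetal liver. All of them, controls included, carried Trp53 -/- (loss of p53) on a mixed FVB/n x C57BL/6 background, and all were kept in StemPro with erythropoietin, stem cell factor and dexamethasone. The treated group received tunicamycin, which blocks N-linked glycosylation in the endoplasmic reticulum, at 2.5 ug/ml for 1.5 h. The control group received none. Both groups were measured in 3 libraries each after harringtonine at 2 ug/ml, which supplied the positions, and in 3 libraries each after cycloheximide at 100 ug/ml for 5 min and of total RNA, which supplied independent readouts of the host genes. Nothing in the labels says whether the libraries of a group came from separate animals or cultures, so a p-value here reflects only how far these libraries spread, which may be technical.

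Harringtonine stops a ribosome in its first rounds of peptide bond formation, while ribosomes that are already elongating run off the mRNA. Footprints left after the drug therefore pile up at start codons, and a gene with several piles may use several start codons. Piles inside a coding sequence can also come from elongating ribosomes that had not yet run off. In a scanning 43S preinitiation complex, eIF2 brings the initiator tRNA to the start codon. Phosphorylation of eIF2, the purpose of the tunicamycin treatment in the series' design, lowers the supply of that complex and is known to shift start site use on mRNAs such as Atf4.

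Reads at the kept and other deposited positions totalled 446561 to 523868 in the untreated and 558625 to 648169 in the tunicamycin libraries. These totals are of deposited positions and not of sequencing depth. Over the members more than 10000 nt from the main position, untreated library 2 had the highest summed CPM (10048) and tunicamycin library 1 the lowest (5451). Summed over upstream positions as far away, neither stood apart. Over members from 1001 to 10000 nt, untreated library 1 was highest (16063) and untreated library 3 lowest (13146). Sums and medians over the farthest members and medians over gene lists are given with and without untreated library 2 and tunicamycin library 1. Other libraries were left out for only some of the lists. All 9 erythroid markers exceeded a mean of 5 CPM of RNA, whereas no marker of hepatocytes (4), endothelium and stroma (4), macrophages (5), or of myeloid neutrophils and monocytes (4) did. Gp5 of the megakaryocyte list (100.5 CPM) and Ms4a2 of the mast cell list (139 CPM) did. Vcam1, Marco and Ttr were at 0 in RNA.

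The bases around a position bear on what kind of site it is. RefSeq promoter windows of build GRCm38.p6, which reach 50 bases past the annotated gene start, held the bases for 445 main positions, 121 upstream positions and 23 members. Each window below runs from 4 bases before a position to 23 bases after it, 5′ to 3′ on the gene's strand. The capitals are bases 12 to 15 after the position, where the P site of a ribosome would lie if the position is the 5′ end of its footprint. The Eif3g main position leads because the member with most reads lies 23 nt beyond it, and Eif3f stands as another initiation factor gene. Wdr82, Ddx56 and Abhd4 are shown because their main position has ATG in the capitals and the bases of a nearby member are known too. Rps24, Prelid1 and Cope are shown because bases are known at both positions and the main position has no ATG there.
Eif3g main, chr9:20898552-20898579, reverse strand: gagttaagacttcgagATGCcgactggc
Eif3f main, chr7:108934416-108934443, forward strand: tctctttctcggcaagATGGcttctccg
Wdr82 main, chr9:106170933-106170960, forward strand: ttgcttctcccttcaaGATGgcggacac
Wdr82 member 17 nt on, chr9:106170950-106170977: atggcggacacaatgaGCCGgcggagcg
Ddx56 main, chr11:6267709-6267736, reverse strand: cagcgtggagtcacgcCATGgaggacca
Ddx56 member 24 nt on, chr11:6267685-6267712: accaagaagcgctgggTTTTgaacacat
Abhd4 main, chr14:54259280-54259307, forward strand: ggcagggcttgtttacTATGgctgatga
Abhd4 member 18 nt on, chr14:54259298-54259325: tggctgatgatctggaGCAGcagtgagt
Rps24 main, chr14:24490686-24490713, forward strand: gcgttgatatgattggTCGGcagtgagc
Rps24 member 63 nt on, chr14:24490749-24490776: agccatcatggtgagtCTCCtcgggctc
Prelid1 main, chr13:55322038-55322065, forward strand: tataacccctgatggcGGCGgtagggac
Prelid1 member 22 nt on, chr13:55322060-55322087: agggacctgggcgcggTCCTgcggagat
Cope main, chr8:70302647-70302674, forward strand: ttgacggaatccgaacTATAgttctcgg
Cope member 42 nt on, chr8:70302689-70302716: tttctttttcatcgccTCTGatttgtcc

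Main positions with known bases had ATG starting 12 or 13 nt after them in 128 of 445 cases (28.8%). Upstream positions had it in 20 of 121 (16.5%) and members in 0 of 23, which allows a share of up to 13.04% by counting error alone. Over all places in the transcribed part of the same windows the share was 1.55%. Only the gene's strand was searched, and the windows follow the genome and not the spliced mRNA, so a triplet joined across a splice site is not seen. The members with bases are 1.83% of all and lie near a gene start, so they do not stand for the rest.

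**Figure D1:**
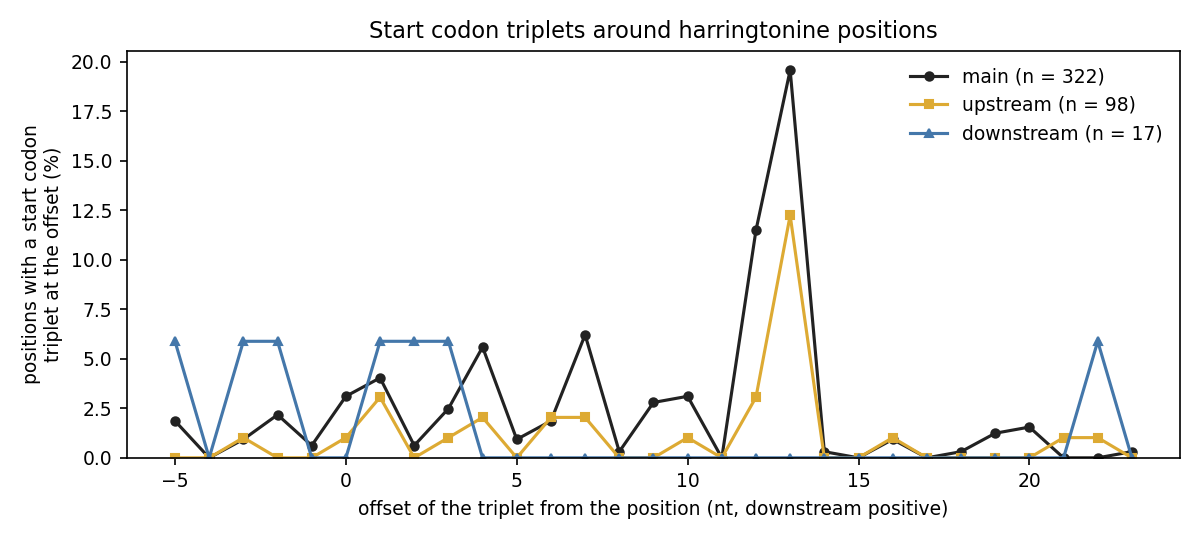
Share of positions (%) with a start codon triplet beginning at each offset in nt from the position, for main positions (n = 322), upstream positions (n = 98) and members (downstream, n = 17) whose bases are known over the whole range plotted. Main positions peak at 12 and 13 nt and upstream positions at 13 nt, while each member point above 0 stands for 1 position.

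A near-cognate start codon, any triplet that differs from ATG by 1 base (NTG, ANG or ATN, with N any other base), without ATG itself, stood at 12 or 13 nt in 12 of 23 members (52.2%). Such a triplet stood there in 65 of 121 upstream positions (53.7%), in 166 of 445 main positions (37.3%) and at 23.6% of all places. In Wdr82, which encodes a WD repeat subunit of a histone methyltransferase complex, the member follows an ATG that the main position's capitals hold, and the same ATG lies at the start of the member's window. In Abhd4 and Ddx56 the member likewise lies just past the ATG of the main position.

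Members lay both close to and far from the main position. The median genomic distance from the main position was 717 nt, with quartiles of 75 and 5468 nt and a range of 12 to 223022 nt. Within 150 nt lay 445 members in 364 genes, and 588 lay more than 1000 nt away. Upstream positions had a median distance of 243 nt. Distances are genomic and include introns. Exon structure was not used here, so exonic and intronic members were not told apart.

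Usp15, a deubiquitinase gene, and Coq10b, a coenzyme Q binding protein gene, held the nearest members, at 12 nt and at 12 and 13 nt. The farthest lay in Asap1 (223022 nt), Pola1 (211509 nt) and Notch2 (123969 nt). Of the 1252 members inside the RefSeq span of their gene, 474 (37.9%) lay within 1000 nt of the gene start, against 658 of 922 upstream positions (71.4%). Members over 1000 nt from the main position lay at a median of 55.8% of the gene span, and 89 of 587 (15.2%) lay past 90% of it. Far members were spread over the gene body. Only 2 members, in Pde12 and Glul, lay inside the span of a small RNA gene (a miRNA in both).

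Within 150 nt the distances favoured multiples of 3 nt. Of the 445 members there, 191 (42.9%) lay a multiple of 3 nt from the main position, here called in frame, 129 were displaced by 1 nt and 125 by 2 nt. Of 322 main positions with known bases, 37 had ATG at 12 nt and 63 at 13 nt. A multiple of 3 nt therefore need not mean a shared reading frame. Among the 401 upstream positions within 150 nt, 146 (36.4%) were in frame, with 123 and 132 in the other frames. The share was 42.7% for forward-strand and 43.2% for reverse-strand genes, and in each of the 6 libraries 40.7% to 42.3% of member reads within 150 nt were in frame. The libraries share the same members, chosen by their summed reads, so they are not separate repeats of this share. After positions within 10 nt of each other had been merged to sites, 43.6% of the downstream sites were in frame. From 151 to 500 nt, 40 of 137 members (29.2%) were in frame, and from 1001 to 10000 nt 123 of 367 (33.5%). Where the main position had ATG at 12 or 13 nt, the 19 members within 150 nt were in frame in 4 cases. Where it had known bases but no ATG there, 17 of 44 were in frame. Members of 1 gene are not independent, and these shares are descriptions.

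**Figure D2:**
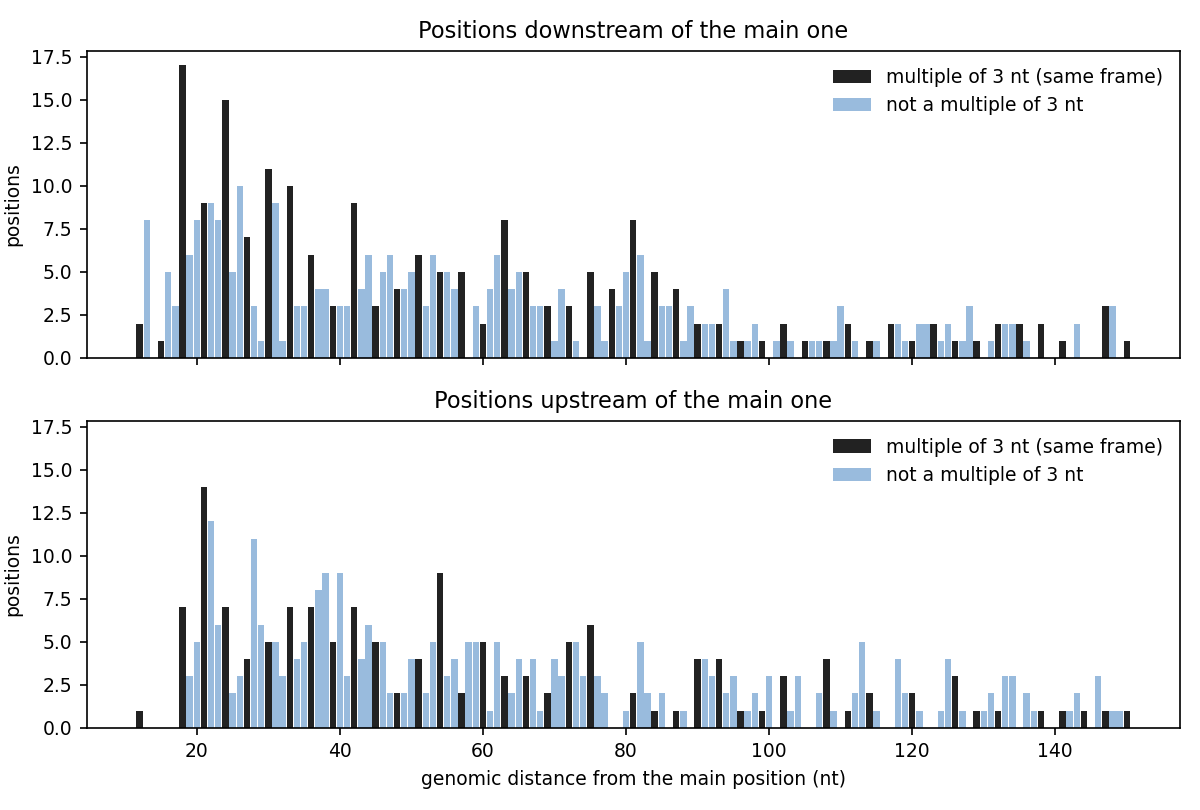
Number of positions at each genomic distance (nt) from the main position, up to 150 nt, for members (upper panel) and upstream positions (lower panel); black bars are multiples of 3 nt and blue bars the other distances. In the upper panel black bars hold 191 of 445 members, with peaks at 18 and 24 nt.

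A single member was found in 548 genes, 2 in 182, 3 in 51, and 4 or more in 38. Prpf8, which encodes the core spliceosome protein, held most (12), followed by the nucleophosmin gene Npm1 (8), the topoisomerase gene Top2a (8), and the membrane protein genes Serinc3 and Tor1aip2 (7 each). Neighbouring members often mark a single pile: 227 lay within 10 nt of another, and merging left 1151 downstream sites in 820 genes. In 162 genes upstream positions were present too. On the forward strand lay 624 members, and 631 on the reverse strand, and 1252 lay in protein-coding genes.

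A typical member held few reads. The median over the 6 libraries was 78 reads (quartiles 57 and 133, highest 3648), which was a median of 35.4% of the main position's reads. All members together held 5.59% of deposited reads, and the 10 strongest held 11.97% of member reads. Just inside the limit of 20 reads in each group were positions in Ercc1, Kpnb1 and Pafah1b2, with 20 reads in each. Just outside were positions in Pla2g12a (57 tunicamycin and 19 untreated reads), Drosha (55 and 19) and Hspa5 (46 and 19). In all, 696 downstream positions missed the limit, 457 of them in the untreated sum and 239 in the tunicamycin sum.

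Reads at each position were compared between 3 tunicamycin and 3 untreated libraries. The limit of 20 reads in each group acts on the same counts and removes positions that are strong in only 1 group, so the members' calls do not answer whether the stress moved reads downstream. No member passed at an adjusted p of 0.05 in edgeR's quasi-likelihood test, out of 940 that passed the filter on low counts. The background was the same, with 0.0% of 5843 positions called higher and 0.0% called lower. At an unadjusted p under 0.05 stood 38 members (18 higher, 20 lower; 4.04%), beside 3.63% of all positions. DESeq2 and limma voom called 0 members as well, with 20 and 33 at an unadjusted p under 0.05. These were 2.13% and 3.51% of members, beside 2.105% and 3.13% of all positions. The split of these small p-values moved with the setting, and the split over all positions is given in brackets. It was 28 higher and 57 lower with the replicate block (196 and 212), which was 9.04% of members and 6.98% of all positions. It was 14 and 36 without untreated library 1 (117 and 120) and 17 and 34 without tunicamycin library 3 (101 and 136). Without untreated library 2 it was 13 and 10 (121 and 74). Of the 696 downstream positions under the read limit 27 could be tested, and 0 passed, with 9 higher and 0 lower at an unadjusted p under 0.05 in edgeR. Such a position enters the test only through the treatment where its reads are high, so nothing is read from this split. The median log2 change was -0.07 for tested members, -0.05 for upstream positions, -0.02 for main positions and -0.00 for all positions. The members that the filter removed had too few reads for the test and are not shown to be stable.

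The ratio of a member to its own main position is likewise built from the reads that chose both. Out of 940 members tested 0 passed in edgeR, and 0 did in DESeq2, with 20 and 24 at an unadjusted p under 0.05. Of all 1672 upstream and downstream pairs, 0.0% were called higher, 0.0% lower, and 1.97% had an unadjusted p under 0.05. The median log2 change of the ratio was -0.06 for tested members and 0.02 for upstream positions.

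Summed over genes, the share of reads at members out of members and main positions was 31.6%, 29.9% and 27.9% in the untreated libraries and 29.9%, 28.9% and 27.6% under tunicamycin. The groups overlapped, at 29.8% ± 1.88 and 28.8% ± 1.18 (SD, n = 3 each), while within each pair of same-numbered libraries the tunicamycin library was lower. The same share for upstream positions was 34.3% ± 0.546 and 33.6% ± 1.00 (SD, n = 3 each). These shares rest on the reads that chose the positions and are not tested: the member difference of -1.01 percentage points turned to 0.11 with members limited to 1000 nt and to 0.0387 with the main position chosen by untreated reads.

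**Figure D3:**
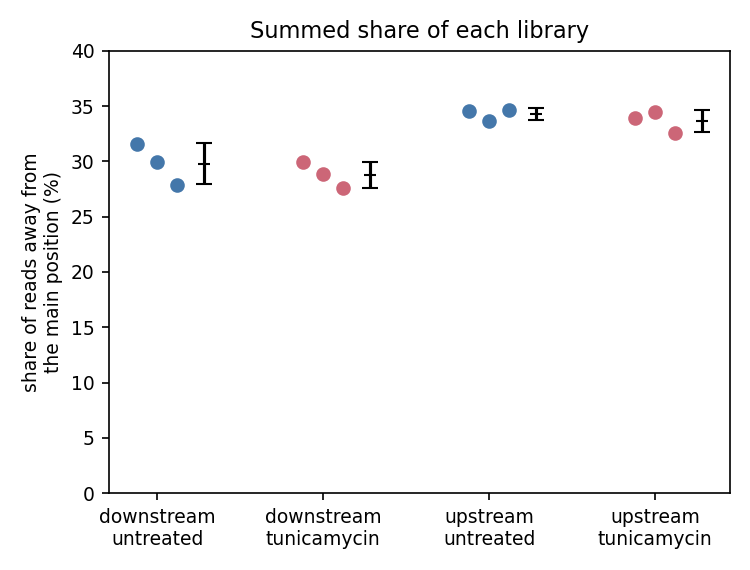
Share (%) of reads away from the main position in each library, for members (downstream) and upstream positions, with untreated libraries in blue and tunicamycin libraries in red; black bars are mean ± SD of 3 libraries. The groups overlap on both sides, from 27.6% to 31.6% for members.

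Members far from the main position differed between libraries within each group. Members over 10000 nt from the main position (221 in 142 genes) summed to 7000, 10048 and 7287 CPM in the untreated libraries and 5451, 7019 and 7515 CPM under tunicamycin (8112 ± 1683 and 6662 ± 1078, SD, n = 3 each), with overlap. Untreated library 2 was the highest of the 6 at 104 of these 221 members (47.1%), and tunicamycin library 1 was the lowest at 109. Among the 120 upstream positions as far away, untreated library 2 was the highest at 24.2% and tunicamycin library 1 the lowest at 31. The sums of these libraries over the upstream positions, 4232 and 4183 CPM, did not stand apart from the others. Those positions summed to 4264 ± 48.4 CPM untreated and 4037 ± 167 CPM under tunicamycin, and upstream positions from 1001 to 10000 nt to 11397 ± 125 and 10327 ± 67.5 CPM (SD, n = 3 each), without overlap in either class. In every other distance class, upstream or downstream, the groups overlapped. The sums hold the reads that chose the positions, so nothing is read from this. Without untreated library 2 the members' difference of -1450 CPM became -482 CPM, without tunicamycin library 1 it became -844 CPM, and without both it was 124 CPM. These libraries were picked after the sums were seen, as the highest untreated and the lowest tunicamycin library. Leaving them out therefore had to shrink or reverse a negative difference. The median log2 change of the 159 tested far members was -0.32. It was -0.11 without tunicamycin library 1 (182 tested) and -0.09 without untreated library 2 (185 tested). Without tunicamycin library 2 or 3 it was -0.40 and -0.43, and without untreated library 1 or 3 it was -0.36 and -0.38. For members up to 1000 nt the median was -0.01, against -0.07 without tunicamycin library 1 and -0.06 without untreated library 2. Without tunicamycin library 2 or 3 it was 0.04 and 0.02, and without untreated library 1 or 3 it was 0.03 and 0.01.

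**Figure D4:**
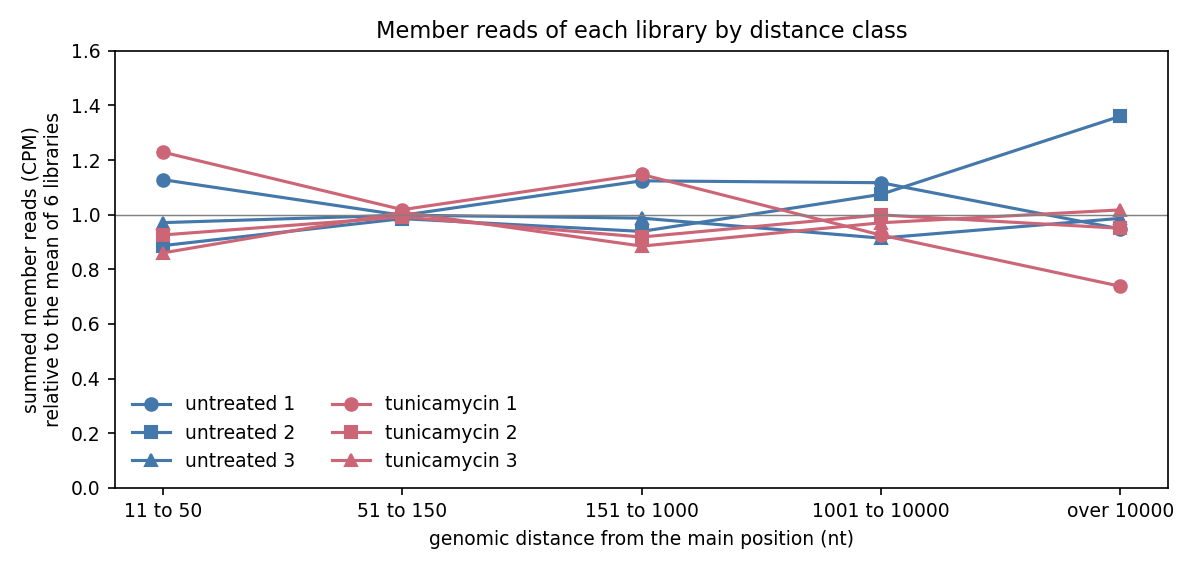
Summed member reads (CPM) of each library divided by the mean of the 6 libraries, by class of genomic distance from the main position (nt), with untreated libraries in blue and tunicamycin libraries in red. Over 10000 nt, untreated library 2 lies highest and tunicamycin library 1 lowest, while the libraries lie close together from 51 to 150 nt.

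Top2a holds both near and far members. Its member 33 nt from the main position had 48, 46 and 44 reads untreated and 66, 42 and 48 under tunicamycin. The member 27277 nt away had 14, 67 and 28 reads untreated and 5, 22 and 33 under tunicamycin, and the member 22705 nt away had 4, 43 and 10 against 0, 11 and 11. The member at 33 nt was even over the libraries, and both far members were highest in untreated library 2 and lowest in tunicamycin library 1. Other Top2a members did not all follow: the member at 51 nt had 10, 15 and 5 reads against 11, 11 and 5, and the member at 20268 nt had 6, 14 and 7 against 8, 8 and 7. The far member of Eprs, the glutamyl-prolyl-tRNA synthetase gene, had 28, 206 and 63 reads untreated and 13, 104 and 57 under tunicamycin at 64809 nt. A member of Eprs at 33 nt had 49, 23 and 34 against 53, 53 and 32. In Prpf8 the strongest of the 12 members, at 13701 nt, had 57, 136 and 57 reads untreated and 21, 94 and 93 under tunicamycin (log2 -0.58 ± 0.53 SE).

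The 3 members with the smallest p in the position test are named as not passing. In Hist2h2bb, a replication-dependent H2B histone gene, the position 172 nt from the main position (96269917 on chromosome 3, forward strand) had 18, 7 and 21 reads untreated and 36, 64 and 128 under tunicamycin. Scaled to library totals this was 31.2 ± 14.2 and 129 ± 81.5 CPM (SD, n = 3 each), with no overlap (log2 2.04 ± 0.50 SE, edgeR adjusted p = 0.9995). With the replicate number as a block the adjusted p was 0.00984 (1.93 ± 0.36), and without tunicamycin library 1 it was 0.0385 (2.40 ± 0.41); it was the only member called in either. Histone genes of a family share near-identical stretches, so the assignment of its reads is uncertain. Other Hist2h2bb members, at 30 and 31 nt, had log2 changes of -0.01 ± 0.43 and 0.33 ± 0.32, which did not pass.

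Rps3, a small subunit ribosomal protein gene, had 28, 37 and 26 reads untreated and 84, 55 and 147 under tunicamycin at 976 nt (log2 1.33 ± 0.39 SE, not passing). All 3 tunicamycin counts were above all untreated counts. The Prpf8 member at 15639 nt went the other way, with 26, 26 and 28 reads untreated and 6, 15 and 13 under tunicamycin (log2 -1.51 ± 0.42, not passing). In the test of the ratio to the main position the smallest p belonged to Hist1h1b, a linker histone gene, at 232 nt. Its member had 32, 10 and 9 reads untreated and 9, 8 and 6 under tunicamycin, while its main position had 7, 5 and 8 against 19, 22 and 51 (log2 of the ratio -3.05 ± 0.76, not passing).

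**Figure D5:**
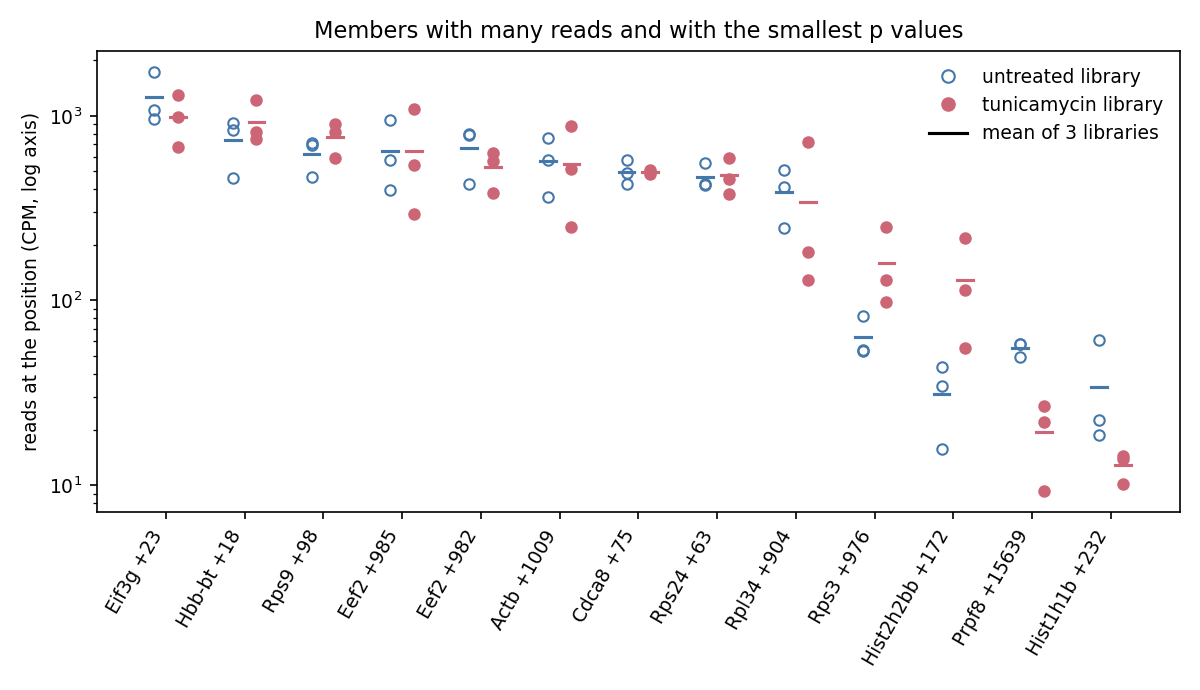
Reads in CPM (log axis) of each library at 9 of the 10 members with most reads and at those with the smallest p values, with open blue points for untreated and filled red points for tunicamycin libraries and lines at the mean of 3; labels give the gene and the distance in nt. The groups overlap at these 9 members, and Hist2h2bb +172 and Rps3 +976 lie higher under tunicamycin.

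Genes of the translation machinery (initiation and elongation factors and ribosomal proteins) were among those with the strongest members. Eif3g, which encodes a subunit of the eIF3 complex that binds the 40S ribosome, held the strongest of all at 20898552 on chromosome 9, 23 nt past the main position whose ATG is printed above. It had 908, 430 and 519 reads untreated and 839, 553 and 399 under tunicamycin. The groups overlapped (1258 ± 416 and 987 ± 309.5 CPM, SD, n = 3 each; log2 -0.35 ± 0.30 SE, not passing). Eif3a, the scaffold subunit of the same complex, had members at 1870 nt (43, 144 and 78 reads against 24, 70 and 72) and 2025 nt (20, 127 and 78 against 8, 69 and 81). Both were highest in untreated library 2. Eif4e2, a cap-binding protein gene, had 66, 57 and 57 reads against 67, 71 and 53. Of 37 initiation factor genes with a main position, 18 held members (31 in all), 23 of the members were tested and 0 passed (median log2 -0.21; -0.25 without tunicamycin library 1, -0.11 without untreated library 2).

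Eef2, which encodes the translocation factor of the ribosome, had neighbouring members at 982 and 985 nt. The member at 985 nt had 495, 178 and 279 reads untreated and 709, 302 and 174 under tunicamycin (log2 0.01 ± 0.42 SE). The member at 982 nt had 420, 353 and 206 against 409, 319 and 225. Both overlapped between groups. In Npm1 the strongest of 8 members, at 1337 nt, had 50, 33 and 47 reads against 62, 72 and 64, and the member at 2984 nt had 87, 37 and 19 against 12, 50 and 36. The 7 of 13 genes for elongation factors and other mRNAs with a 5′ terminal oligopyrimidine tract that held members had 22 members. Of these 16 were tested and 0 passed. Their median log2 change was -0.48 (-0.49 without tunicamycin library 1, -0.42 without untreated library 2, -0.12 without untreated library 1).

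Ribosomal protein genes held members in 12 of 31 small subunit and 16 of 40 large subunit genes. Rps9 had 362, 207 and 342 reads untreated and 384, 458 and 532 under tunicamycin at 98 nt. Rps24, whose bases are printed above, had 224, 249 and 202 reads against 246, 331 and 270 at 63 nt. Neither passed, with log2 changes of 0.32 ± 0.26 and 0.02 ± 0.26 SE. Rpl34 had 265, 110 and 199 reads untreated and 466, 102 and 76 under tunicamycin at 904 nt, so that tunicamycin library 1 was above the others. Out of 18 small and 27 large subunit members, 16 and 23 were tested and 0 passed. The median log2 change was -0.34 for the small subunit (-0.32 without tunicamycin library 1, -0.20 without untreated library 2). It was -0.20 for the large subunit (-0.24 and -0.29). Without untreated library 1 the medians were -0.08 for the small and 0.21 for the large subunit, so the sign of the latter hung on 1 library. Processed pseudogenes of these genes make the placement of reads uncertain.

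Red-cell genes differed among themselves. The beta-globin gene Hbb-bt had the second highest member at 18 nt, in frame, with 480, 205 and 403 reads untreated and 790, 457 and 444 under tunicamycin (log2 0.34 ± 0.30 SE, not passing). The alpha-globin gene Hba-a1 had 119, 75 and 68 against 86, 97 and 125 at 51 nt. Near-identical copies of both genes exist, so their reads may be shared. Car1, a carbonic anhydrase gene, had members at 29946 nt (143, 229 and 216 reads against 181, 107 and 163) and 29967 nt (132, 90 and 196 against 173, 111 and 204).

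The ammonium transporter homologue Rhag, part of the red-cell membrane, had 23, 17 and 31 reads untreated and 55, 42 and 43 under tunicamycin at 79 nt. Its groups did not overlap, yet it did not pass (log2 0.67 ± 0.33 SE). Members of red-cell membrane genes had a median log2 change of -0.41 over 11 tested (0.02 without tunicamycin library 1, -0.25 without untreated library 2). Erythroid transcription factor genes held members in 3 of 11 genes, with a median of 0.21 over 4 tested (0.01 and 0.09 without the same libraries). Without tunicamycin library 3 this median was -0.08. Gfi1b, a transcriptional repressor gene, had 38, 28 and 19 reads against 34, 28 and 16 at 68 nt. Klf1, an activator of globin genes, had 12, 12 and 7 against 11, 12 and 25 at 1272 nt. Gata1, the central erythroid regulator known for a shorter protein from a downstream start codon, had a main position and 1 position within 10 nt of it, and no member. Of the genes for haem synthesis and iron uptake, 1 of 9 held a member, against 21.2% of all genes with a main position.

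Targets of the eIF2 pathway were looked up by name. Atf4, the transcription factor whose translation rises when eIF2 is phosphorylated, had 1 member, at 566 nt (80256234 on chromosome 15), with 31, 9 and 20 reads untreated and 67, 17 and 11 under tunicamycin. The groups overlapped and the change did not pass (log2 0.34 ± 0.58 SE). Pnrc2, a cofactor of nuclear receptors and of mRNA decapping, had members at 704 nt (76, 28 and 69 reads against 42, 82 and 50) and 740 nt (48, 54 and 48 against 56, 51 and 69). Hspa5, the ER chaperone BiP, had members at 2275 nt (40, 16 and 17 against 13, 18 and 32) and at 3275 nt (6, 8 and 7 against 3, 12 and 7, not tested). Ddit3 and Ppp1r15a had no deposited position, and Ifrd1 had 2 below the read limit. Of 9 members in 5 of 11 ER chaperone genes, 4 were tested and 0 passed, and of 10 members in 4 of 5 genes with known eIF2-linked upstream reading frames, 10 were tested and 0 passed. These 10 members lay at a median of 28886 nt, and their median log2 change of -0.43 was -0.17 without tunicamycin library 1 and 0.00 without untreated library 2. For the 4 ER chaperone members it was -0.38, and 0.10 and -0.03 without the same libraries.

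Chaperones of the cytosol and mitochondria held members in 13 of 18 genes with a main position (72.2%), against 21.2% of all such genes. Cct2, a subunit of the CCT folding ring, had 100, 142 and 101 reads untreated and 162, 173 and 198 under tunicamycin at 47 nt, and 178, 38 and 124 against 293, 92 and 44 at 735 nt. Hsp90ab1 had 77, 67 and 31 reads against 33, 20 and 48 at 4294 nt (log2 -1.10 ± 0.40 SE, not passing). Of 29 members 19 were tested and 0 passed (median log2 -0.55; -0.43 without tunicamycin library 1, -0.40 without untreated library 2).

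Peroxiredoxin and thioredoxin genes held members in 6 of 10 genes. Prdx2, an abundant red-cell antioxidant enzyme, had 174, 106 and 116 reads against 157, 129 and 108 at 566 nt. Txnip, the inhibitor of thioredoxin, had 10, 11 and 13 against 25, 22 and 37 at 42 nt, with no overlap but not passing (log2 0.99 ± 0.39 SE). Oxidative phosphorylation genes held members in 17 of 62, close to the main position (median 63 nt). Cox5b had 133, 97 and 114 reads against 204, 86 and 98 at 18 nt, and Ndufb6 had 136, 132 and 87 against 133, 96 and 53 at 23 nt. Both encode subunits of respiratory complexes, and neither passed. The median log2 change was 0.19 for the 10 tested peroxiredoxin and thioredoxin members (0.20 without tunicamycin library 1, -0.05 without untreated library 2). It was -0.19 for the 22 tested oxidative phosphorylation members (-0.28 and -0.20). The latter median was 0.11 without untreated library 1, and -0.05 and -0.04 without tunicamycin library 2 or 3.

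RNA-binding and splicing genes held members in 17 of 38 and proteasome genes in 10 of 35. Ncl, the nucleolin gene, had 120, 128 and 101 reads untreated and 176, 178 and 197 under tunicamycin at 31 nt. Psmd14, a deubiquitinase of the proteasome lid, had 134, 109 and 119 against 132, 150 and 200 at 10941 nt. Core histone genes held members in 9 of 49, with 14 members of which 12 were tested and 0 passed (median log2 0.04; -0.06 without tunicamycin library 1, 0.00 without untreated library 2). The median was 0.04 for the 23 tested RNA-binding and splicing members (0.02 and 0.06 without the same libraries). It was 0.12 for the 7 tested proteasome members (0.04 and 0.03). The RNA-binding and splicing median was -0.09 and -0.08 without untreated library 1 or 3. Without tunicamycin library 3 the proteasome median was -0.04. Outside these lists, Actb had 399, 258 and 175 reads against 571, 289 and 148 at 1009 nt, and Cdca8, a subunit of the chromosomal passenger complex, had 257, 257 and 207 against 329, 278 and 286 at 75 nt. At Cdca8 the member held 90.4% of the main position's reads and its log2 change was -0.00 ± 0.24 SE.

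Host genes of members had more footprints and RNA reads than other genes with a main position. Their median was 155 ± 4.33 CPM of cycloheximide footprints on the coding sequence in untreated cells, against 69.9 ± 1.81 CPM in genes with a main position and no member (SD over 3 libraries). For RNA the medians were 165 ± 0.521 and 83.8 ± 0.364 CPM. Genes with an upstream position and no member lay between, at 123 ± 3.18 CPM of footprints and 138 ± 2.28 CPM of RNA. The part that a gene's read level plays in the number of its positions over the limit was not tested. The list shares above carry the same limit.

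The cycloheximide libraries gave a readout of the host genes that the choice of members did not use. Of 791 host genes tested, coding-sequence footprints rose in 31 (3.92%) and fell in 11 (1.39%) under tunicamycin, by edgeR at an adjusted p under 0.05. Over all 9265 genes 1.78% rose and 0.799% fell, and among 2888 genes with a main position and no member 86 (2.98%) rose and 21 (0.727%) fell. The sets were not matched for footprint level, with medians of 155 CPM in host genes and 69.9 CPM in genes without a member. What this level adds to the shares called was not tested. Atf4 rose most, from 73.7, 74.4 and 80.3 CPM to 283, 348 and 396 CPM (log2 2.18 ± 0.11 SE, edgeR adjusted p = 2.33e-08). Pnrc2 rose from 22.97 ± 0.522 to 45.1 ± 12.5 CPM (0.99 ± 0.16, 0.00472) and the proteasome subunit gene Psma3 from 42.4 ± 7.60 to 82.9 ± 20.2 CPM (0.98 ± 0.16, 0.00472; SD, n = 3 each, edgeR).

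The histone genes Hist2h2ac (log2 0.53 ± 0.10 SE) and Hist1h1b (0.43 ± 0.09) rose too, with edgeR adjusted p of 0.0145 and 0.0236. The genes named are not a ranking, as other host genes, histone genes among them, passed with larger increases than that of Pnrc2. Among the genes that fell, Rps2 changed most (-0.53 ± 0.13, edgeR adjusted p = 0.0481); it was chosen after its values were seen. Atf4, Pnrc2 and Psma3 passed in 10 of 10 alternatives, Hist2h2ac in 8, Hist1h1b in 6 and Rps2 in 5. Leaving out 1 library ended the call of Hist2h2ac without tunicamycin library 3 (adjusted p = 0.102 in edgeR) or untreated library 2 (0.0998). That of Hist1h1b ended without tunicamycin library 2 (edgeR adjusted p = 0.0711) or 3 (0.143) and without untreated library 1 (0.0558) or 2 (0.157). That of Rps2 ended without tunicamycin library 2 (edgeR adjusted p = 0.0762) or 3 (0.207) and without untreated library 1 (0.143), 2 (0.133) or 3 (0.0608). The members of Atf4, Pnrc2, Psma3, Hist2h2ac and Hist1h1b did not pass in the position test. With the replicate number as a block 72 host genes rose and 51 fell (9.10% and 6.45%). Over all genes the block called 5.63% higher and 3.92% lower, and among genes with a main position and no member 9.42% and 3.91%. The host gene counts moved with single libraries, and the shares of all genes, given in brackets, moved too. Higher and lower were 16 and 3 without tunicamycin library 2 (0.829% and 0.149%) and 10 and 0 without tunicamycin library 3 (0.585% and 0.0532%). They were 19 and 3 without untreated library 1 (1.00% and 0.227%) and 10 and 1 without untreated library 2 (0.551% and 0.0756%). The counts were 29 and 7 without untreated library 3 (1.48% and 0.519%) and 43 and 21 without tunicamycin library 1 (2.88% and 1.7%).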

How the data were processed

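The read counts per harringtonine position, the footprint counts per gene feature and the RNA counts per gene were deposited by the authors as raw counts. STAR, HTSeq and edgeR and builds mm10 and GRCm38 stand in the submitters' processing notes, with no versions; the assignment of reads to single positions is not stated there. By a check of the files, every deposited position holds at least 20 reads in the sum of 1 treatment. Columns of the harringtonine files give a treatment and a number, and were used as libraries of that treatment. Where several positions of a gene shared the most reads (9 genes), the most upstream was taken as the main position; by file order there would be 1252 members.

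The tests were edgeR's (version 4.0.16, R 4.3.3; TMM, filterByExpr, glmQLFit, glmQLFTest, Benjamini-Hochberg over all features tested), with TMM placing the typical feature near 0. Positions were compared between treatments in 1 fit over all deposited positions. The ratio of a position to its main position was fitted on 12 columns with the library as a term, and coding-sequence counts on the 6 cycloheximide libraries. Scripts were tested on simulated counts. CPM are counts scaled to the summed deposited reads of a library. Single values per library come from the reads that chose the positions, so the exact permutation test planned for them is not reported. Alternatives used DESeq2 1.42.0, limma 3.58.1 (voom), other scalings, filters and merged positions, a replicate block, or 1 library less. Deviations of same-numbered libraries correlated at 0.498, 0.160 and 0.122 over positions and at 0.380, 0.103 and 0.302 over coding-sequence counts. Untreated library 2 correlated with tunicamycin library 3 over positions at 0.391, above the same-numbered 0.160 and 0.122. The numbers were used as pairs in the replicate block, an alternative, and in describing the summed shares. The main tests did not use them.

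Named members are the 10 with most reads, the 3 with the smallest p in each test since none passed, up to 4 per gene list, those of the 5 genes with most members, the nearest and farthest 3, and the 3 just inside and outside the read limit; Atf4, Ddit3, Ppp1r15a, Ifrd1, Hspa5 and Gata1 were always looked up. The text gives a part of them, and results of 2 genes are not reported here. Members, lists and tests were chosen with earlier results of these data known. RefSeq (GRCm38.p6) matched 1254 members by symbol; a genome sequence was not used here.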

Additional observations from a re-analysis of the deposited data

How the results depend on the processing

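The read limit of 20 sets a low precision: a typical member has 78 reads over 6 libraries. Among 2543 alternative values of 210 results of named members, 2541 stayed on the same side of the threshold and 2 (Hist2h2bb at 172 nt) newly passed; 175 values, in 97 of these results, had the other sign. Among 60 alternative values of the 6 named host genes, 11 lost the call and none had the other sign. Members called higher numbered 1 with the replicate block and 1 without tunicamycin replicate 1, against 0, and leaving out any other library gave 0. The block changed no other call of a member. Over all positions the block called 5 higher and 1 lower, and leaving out tunicamycin replicate 1 called 2 higher and 0 lower. Host genes called by coding-sequence footprints numbered 31 higher and 11 lower, 49 and 28 with no filter, and 72 and 51 with the replicate block. Leaving out 1 library gave 10 to 43 higher and 0 to 21 lower. Over all genes 1.78% and 0.799% were called, 2.79% and 1.68% with no filter, and 5.63% and 3.92% with the block. The range without 1 library was 0.551% to 2.88% higher and 0.0532% to 1.7% lower. The difference in the downstream share (-1.01 percentage points) was 0.1115 with members at most 1000 nt away and 0.0387 with the main position chosen by untreated reads, and the upstream difference (-0.645) was 0.280 with the latter. The summed CPM of members over 10000 nt away, split by distance after seeing the data, differed by -1450, by -2006 to -482 without 1 library, and by 124 without untreated replicate 2 and tunicamycin replicate 1. The last 2 were picked as the extremes of these same sums. The cause of these shifts was not tested.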
